A study of Mus musculus with 14 samples.

Results

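The genes described here are 36 mouse immune receptor genes of the Fc receptor, Fc receptor-like, Slam, Siglec, Lilr, Pira, Pilr and Trem families, with the DNA that was open around them in early blood cells. They were chosen by name, as every gene to which the list gives a peak and whose symbol begins with Fcgr, Fcer1, Fcrl, Slamf, Siglec, Lilr, Pira, Pilr or Trem, with Treml1 left out. A further 3 genes with such names, Fcer1a, Pira1 and Lilra5, were given no peak and are not among the 36. The deposited list of open regions gave 155 of its 92842 peaks (0.167%) to these genes, which are 36 of 19105 genes that it names as nearest to a peak. ATAC-seq, in which a transposase cuts and tags accessible DNA, was run on 7 sorted cell types of wild-type C57BL/6 mice aged 8 to 12 weeks. Sorted by FACS, 6 of the types were taken from bone marrow (MPP, CMP, CLP, GMP, MEP, ProB) and ProT from the thymus, with 2 libraries of each type and 14 in all. Whether both libraries of a type come from separate animals is not stated in the labels. The list merges all cell types into regions of 499 bp and carries no value per library, so that neither the level of a peak in a cell type nor the markers of the sorted cells could be read from it. Each peak is described by its place, by its annotation and by its signed distance to the nearest transcription start site (TSS), measured from the centre of the peak and negative upstream.

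Fc receptors bind the constant part of antibodies and couple antibody recognition to phagocytes, mast cells and B cells. Many of these families hold activating receptors, which signal through adaptor proteins such as the Fc receptor gamma chain or Tyrobp, beside inhibitory receptors, which recruit phosphatases through tyrosine motifs in their tails. Siglecs bind sialic acids, Slam receptors mostly bind one another between blood cells, and most of these genes lie in clusters of relatives that arose by duplication.

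Sequences of the 250 bases before the RefSeq start (assembly GRCm38.p6, the same primary sequence as mm10) are shown for 10 genes, to let the promoters with a peak be read beside those without one. They run 5′ to 3′ in the direction of the gene, and capitals mark matches to the motifs described with the promoter values. The first 3 belong to neighbouring Fc gamma receptors: Fcgr2b (chr1:170976072-170976321, minus strand), with 224 of the 250 bases under a peak, Fcgr3 (chr1:171059395-171059644, minus strand), with all 250 under a peak, and Fcgr4 (chr1:171018676-171018925, plus strand), with 0. The capitals in Fcgr2b are a GGAA and a GAAA separated by 2 bases, read on the other strand, the arrangement bound by PU.1 together with an IRF factor. Those in Fcgr3 are a C/EBP match, and those in Fcgr4 an IRF match followed by a PU.1 match.
Fcgr2b: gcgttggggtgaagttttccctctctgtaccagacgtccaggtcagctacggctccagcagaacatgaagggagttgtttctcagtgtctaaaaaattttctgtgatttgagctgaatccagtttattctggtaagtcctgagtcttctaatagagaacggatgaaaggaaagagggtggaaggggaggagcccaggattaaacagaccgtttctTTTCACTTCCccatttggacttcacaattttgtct
Fcgr3: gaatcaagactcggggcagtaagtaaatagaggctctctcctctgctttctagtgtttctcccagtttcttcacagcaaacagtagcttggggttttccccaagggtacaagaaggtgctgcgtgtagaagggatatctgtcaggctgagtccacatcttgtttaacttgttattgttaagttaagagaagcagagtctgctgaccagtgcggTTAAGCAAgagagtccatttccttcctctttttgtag
Fcgr4: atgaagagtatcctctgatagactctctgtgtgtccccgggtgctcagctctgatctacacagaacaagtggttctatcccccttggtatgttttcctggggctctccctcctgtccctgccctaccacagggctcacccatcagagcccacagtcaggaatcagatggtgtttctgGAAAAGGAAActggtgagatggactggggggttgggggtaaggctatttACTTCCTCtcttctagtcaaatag

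Fcrl1 (chr3:87376137-87376386, plus strand; 10 bases under a peak) and Slamf9 (chr1:172475110-172475359, plus strand; all 250 bases under a peak) both hold the PU.1 letters GAGGAAGT within 15 bases of the start. In Fcrl1 they follow a TATAAA and an AP-1 match, and in Slamf9 they follow 2 matches to CAGCTG, a site of E proteins. Trem2 (chr17:48346151-48346400, plus strand; 220 bases under a peak) holds CAGCTG and an AP-1 match.
Fcrl1: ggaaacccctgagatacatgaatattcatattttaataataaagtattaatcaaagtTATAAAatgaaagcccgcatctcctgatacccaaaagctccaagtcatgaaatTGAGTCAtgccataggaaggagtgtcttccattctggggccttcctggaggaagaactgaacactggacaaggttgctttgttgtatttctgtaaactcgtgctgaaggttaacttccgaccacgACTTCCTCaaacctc
Slamf9: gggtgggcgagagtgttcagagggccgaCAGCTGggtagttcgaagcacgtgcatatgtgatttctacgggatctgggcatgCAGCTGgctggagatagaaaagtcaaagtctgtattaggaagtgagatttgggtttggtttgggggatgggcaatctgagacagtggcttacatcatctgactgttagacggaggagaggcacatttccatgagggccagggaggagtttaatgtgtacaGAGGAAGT
Trem2: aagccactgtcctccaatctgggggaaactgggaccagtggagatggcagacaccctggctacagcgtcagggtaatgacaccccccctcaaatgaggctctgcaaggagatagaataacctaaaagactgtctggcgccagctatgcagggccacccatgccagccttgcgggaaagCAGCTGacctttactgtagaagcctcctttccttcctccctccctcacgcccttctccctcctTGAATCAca

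The remaining windows come from near-identical copies. Lilra6 (chr7:3915502-3915751, minus strand) was covered by a peak over all 250 bases, while its copy Pira2 (chr7:3845052-3845301, minus strand) was covered over 0, although both hold the same PU.1 letters. Pilra (chr5:137836279-137836528, minus strand) and Pilrb1 (chr5:137858050-137858299, minus strand) hold the same IRF, Gata and C/EBP matches, and neither was under a peak. Pilra also shows the composite, in bases that come before the stretch where the Pilrb1 window begins. The copies can therefore not be compared at that site.
Lilra6: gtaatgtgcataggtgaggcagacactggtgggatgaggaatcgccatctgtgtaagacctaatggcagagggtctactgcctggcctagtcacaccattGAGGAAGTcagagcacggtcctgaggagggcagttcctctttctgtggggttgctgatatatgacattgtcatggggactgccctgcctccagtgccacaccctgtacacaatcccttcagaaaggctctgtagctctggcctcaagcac
Pira2: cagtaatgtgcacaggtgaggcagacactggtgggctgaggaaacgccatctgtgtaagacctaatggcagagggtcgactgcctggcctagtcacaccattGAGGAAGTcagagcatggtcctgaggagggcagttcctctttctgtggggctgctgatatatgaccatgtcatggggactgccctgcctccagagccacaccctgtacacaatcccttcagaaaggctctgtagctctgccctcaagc
Pilra: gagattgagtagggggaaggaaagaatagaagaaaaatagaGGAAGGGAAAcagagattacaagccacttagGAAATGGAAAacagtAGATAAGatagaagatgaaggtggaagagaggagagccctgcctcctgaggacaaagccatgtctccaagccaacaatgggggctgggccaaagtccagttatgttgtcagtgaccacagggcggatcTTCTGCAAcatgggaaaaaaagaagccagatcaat
Pilrb1: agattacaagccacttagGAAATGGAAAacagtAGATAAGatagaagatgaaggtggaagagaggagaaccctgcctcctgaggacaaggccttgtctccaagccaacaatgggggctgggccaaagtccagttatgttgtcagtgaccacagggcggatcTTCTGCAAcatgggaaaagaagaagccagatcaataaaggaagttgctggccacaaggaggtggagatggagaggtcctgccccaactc

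The 36 genes had 4.31 ± 2.81 peaks each (SD over genes, n = 36), with a median of 4 and a range of 1 to 12, genes without a peak not being counted. All other genes of the list had 4.86 ± 5.33 peaks, with a median of 3 and a range of 1 to 88. The receptor genes thus stood within the ordinary range. Siglec15 had 12 peaks, a number that 8.95% of all genes reach, and Fcgr2b, Lilr4b, Slamf1 and Slamf6 had 9, a number that 15.2% reach. At the low end, Fcgrt, Fcrl6, Pilrb1, Pilrb2 and Trem3 had 1 peak each. Single-peak genes were 13.9% of the receptor genes (exact Clopper-Pearson 95% interval 4.67 to 29.5), against 23.5% of all other genes. This interval and those below cover counting error only, and neighbouring peaks and duplicated genes are not independent.

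**Figure D1:**
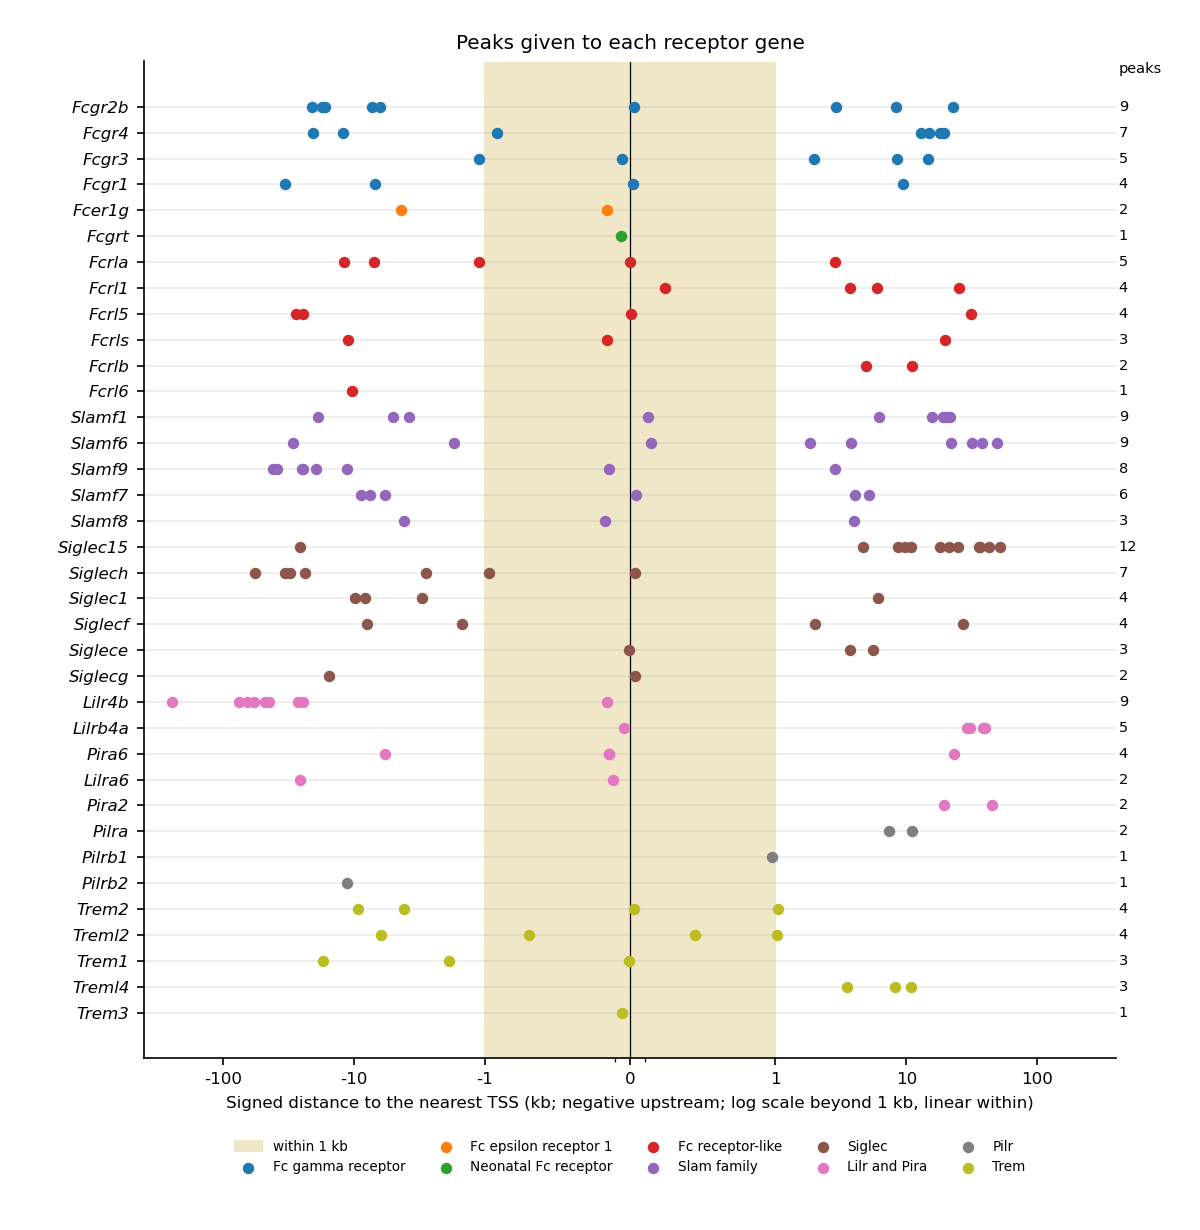
Each row is a receptor gene and each point 1 of its peaks, placed by its signed distance to the TSS in kb, with the number of peaks given for each gene. Siglec15 had 12 peaks and the 9 peaks of Lilr4b all lay upstream, the farthest 245 kb away.

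Among the Fc gamma receptors, each of the 4 genes had a peak within 1 kb of its TSS, the distance used throughout for a peak at a start. Such a peak is found at 68% of all genes named as nearest, so that a count over so few genes sets no family apart. Fcgr2b encodes the inhibitory IgG receptor and had 9 peaks, with one centred 25 bp inside the gene (chr1:170975797-170976295, promoter-TSS). Of its others, 5 lay 6.35 to 20.9 kb upstream in intergenic DNA, a pair lay in introns 1 and 3 of 7, and one lay 22.6 kb downstream. Fcgr2b was therefore flanked on both sides by open regions. Fcgr4, an activating receptor found in the mouse, had 7 peaks, but the nearest was centred 913 bp upstream (chr1:171017764-171018262) and left the last 250 bases before the start uncovered. Fcgr3, an activating receptor of low affinity for single IgG molecules, had 5 peaks, one of them 55 bp upstream of the TSS (chr1:171059209-171059707) and the next 1.10 kb upstream in RLTR9B, an ERVK long terminal repeat. Fcgr1, the high-affinity IgG receptor, lies apart from them on chromosome 3. It had 4 peaks, with one 23 bp inside the gene (chr3:96293697-96294195) and one in its last exon.

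The remaining classical Fc receptor genes had few peaks. Fcer1g, which encodes the gamma chain that activating Fc receptors need for signalling, had 2, one of them centred 161 bp upstream of the TSS. Fcgrt encodes the heavy chain of the neonatal Fc receptor, which protects IgG from degradation, and its only peak lay 59 bp upstream of the TSS. Fcer1a, the IgE-binding chain of mast cells and basophils, was given no peak. The peak nearest to Fcer1a lay 86.4 kb away and was given to Ackr1.

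The 6 Fc receptor-like genes had 19 peaks. Fcrla, which encodes an intracellular protein of B cells, had 5, with one centred 3 bp inside the gene (chr1:170927331-170927829) and 3 upstream. Fcrl1 and Fcrl5, surface receptors of B cells, had 4 each, and the peaks nearest to their starts were centred 239 and 6 bp inside the genes. All 4 peaks of Fcrl1 lay in its introns, while those of Fcrl5 were a promoter peak, a pair 24.4 and 27.5 kb upstream and one in the 3′ UTR. Fcrls, a scavenger receptor-like member of mouse macrophages and microglia, had 3 peaks with one 156 bp upstream. Fcrlb had 2 and Fcrl6 had 1, and none of these came within 1 kb of a TSS. The nearest lay 4.94 kb inside Fcrlb, in exon 5 of 6, and 10.3 kb upstream of Fcrl6.

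The 5 Slam genes had 35 peaks, a mean of 7.00 per gene and the highest of the families with more than 1 gene. Each had a peak within 1 kb of its TSS, as do 68% of all genes named as nearest. Slamf1 (CD150), which is used to mark blood stem cells, had 9, with one in exon 1 of 7 centred 124 bp from the start (chr1:171767007-171767505) and a further 5 in introns 1, 3 and 4. Slamf6 (Ly108), a receptor of lymphocytes, also had 9, with one in its 5′ UTR (chr1:171917429-171917927) and one inside the last intron of its neighbour Cd84. In both genes the start and the introns were open, and 3 of the Slamf6 peaks lay in intergenic DNA 31.6 to 49.0 kb downstream. Slamf9, a short member of the family that lacks the usual tyrosine motifs, had 8 peaks, of which 6 lay 11.3 to 41.4 kb upstream. Slamf7 (CRACC), a receptor of natural killer and plasma cells, had 6, including one 43 bp inside the gene (chr1:171652745-171653243) and one in exon 2 of 8. Slamf8, another member without these motifs, had 3 peaks, 4.14 kb and 171 bp upstream and 3.96 kb downstream of its TSS.

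The 6 Siglec genes had 32 peaks, and 3 of the genes had one within 1 kb of a TSS, against 68% of all genes named as nearest. Siglec15, which pairs with Tyrobp in osteoclasts, had 12 peaks with the nearest 4.65 kb inside the gene. Of these, 5 lay inside Epg5, a gene of autophagy next to it, so that the number at Siglec15 includes open regions of its neighbour. Siglech, a receptor of mouse plasmacytoid dendritic cells, had 7 peaks, none of them downstream beyond the start. They included a pair at the start, centred 33 bp inside and 967 bp outside the gene, one 2.78 kb upstream and 4 intergenic peaks 23.5 to 57.1 kb upstream. The inhibitory receptors differed among themselves: Siglece of myeloid cells and Siglecg of B cells had a peak 9 and 33 bp from the TSS, whereas the peak of Siglecf, known from eosinophils, nearest to its TSS lay 1.48 kb upstream in MTA_Mm, a retroviral repeat. Siglec1 (sialoadhesin), a receptor of tissue macrophages, had 4 peaks with the nearest 3.02 kb upstream.

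The Lilr and Pira genes had 22 peaks over 5 genes, and their median distance to the TSS, 27.9 kb, was the greatest of the families described here. Lilr4b (gp49A), which lacks inhibitory motifs, had 9 peaks, all upstream. The first lay 160 bp from the start (chr10:51480203-51480701), 7 lay between 24.6 and 75.5 kb away and the last lay at 245 kb. Its neighbour Lilrb4a (gp49B), an inhibitory receptor, had a peak 44 bp upstream of the TSS (chr10:51490605-51491103) and 4 peaks 29.2 to 40.2 kb downstream. Each of these 4 lay in a repeat, namely Lx9, SSU-rRNA_Hsa, MuRRS4-int and LTRIS3. In the Pira cluster on chromosome 7, whose activating receptors bind MHC class I, Lilra6 had a peak 120 bp upstream of its TSS and another 25.5 kb upstream. Pira2 had a pair, 19.3 and 44.9 kb downstream. The RefSeq table places the first inside the coding gene Gm15448 and the second 322 bp from the pseudogene Gm15925, so that neither can be called its own with certainty. Pira6 had 4 peaks, with one 145 and one 146 bp upstream of starts that lie 376 kb apart. The RefSeq table places the first of these at Gm14548 and the second at the pseudogene Gm15931, so that the name Pira6 here covers more than 1 copy and its count is uncertain. Pira1 and Lilra5 were given no peak, and the inhibitory partner gene Pirb had none either, with the nearest peak 5.10 kb away.

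The 3 Pilr genes had 4 peaks in all, the fewest of the families with more than 1 gene. Pilra, the inhibitory member, had 2, in its introns 3 and 4 and no nearer than 7.32 kb to the TSS. Pilrb1, an activating member, had 1, centred 974 bp inside the gene in intron 2 of 4, and Pilrb2 had 1, in the repeat URR1A 11.3 kb upstream. No peak covered the TSS of a Pilr gene. The 5 Trem genes had 15 peaks at a median distance of 1.86 kb, the shortest of the families with more than 1 gene. Trem1, which amplifies inflammation in neutrophils and monocytes, had a peak 8 bp upstream of its TSS and Trem3 had its only peak 54 bp upstream. Trem2, the Tyrobp-coupled lipid receptor of microglia and osteoclasts, had 4 peaks, with one 29 bp inside the gene (chr17:48346181-48346679). Treml2 had 4, with 2 of them within 1 kb at 696 bp upstream and 446 bp downstream. Treml4 had 3, all inside the gene, and the nearest was 3.52 kb from its TSS.

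Peaks at a start made up 30 of the 155 receptor peaks, or 19.4% (13.5 to 26.5), and 16.2% of all peaks in the list lie within 1 kb of a TSS. Counted by gene, 27 of the 36 receptor genes had such a peak, or 75% (57.8 to 87.9), and 68% of all genes named as nearest have one. Both shares lay near the background, which fell inside their intervals. Of the 30 peaks, 25 covered the TSS itself. The 9 genes without a peak within 1 kb were Fcrlb, Fcrl6, Siglec1, Siglecf, Siglec15, Pilra, Pilrb2, Pira2 and Treml4.

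Farther from the start, the receptor peaks lay closer in than other peaks. Their median distance to a TSS was 8.69 kb, against 18.2 kb for all other peaks. Beyond 50 kb lay 6 receptor peaks, or 3.87% (1.43 to 8.23), against 25.7% of all other peaks. These 6 came from 3 genes, 4 of them at Lilr4b, 1 at Siglec15 and 1 at Siglech. Between 1 and 10 kb lay 34.2% of receptor peaks (26.8 to 42.2), against 21% of all other peaks. How far a peak can lie from its nearest TSS depends on the spacing of genes, which is close in these clusters, and its part in these shares was not tested.

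By the annotation of the list, receptor peaks fell outside genes more often. Intergenic DNA held 77 of them, or 49.7% (41.6 to 57.8), against 39.3% of all other peaks. Introns held 40, or 25.8% (19.1 to 33.4), against 42.1% of all other peaks. The promoter-TSS class held 25, or 16.1% (10.7 to 22.9), against 11.5% of all other peaks, a share inside the interval. Exons held 7 receptor peaks, the 5′ UTR 3, the 3′ UTR 2 and transcript ends 1. The receptor peaks were thus shifted towards intergenic and away from intronic DNA, while their other classes could not be told from the rest at these counts.

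**Figure D2:**
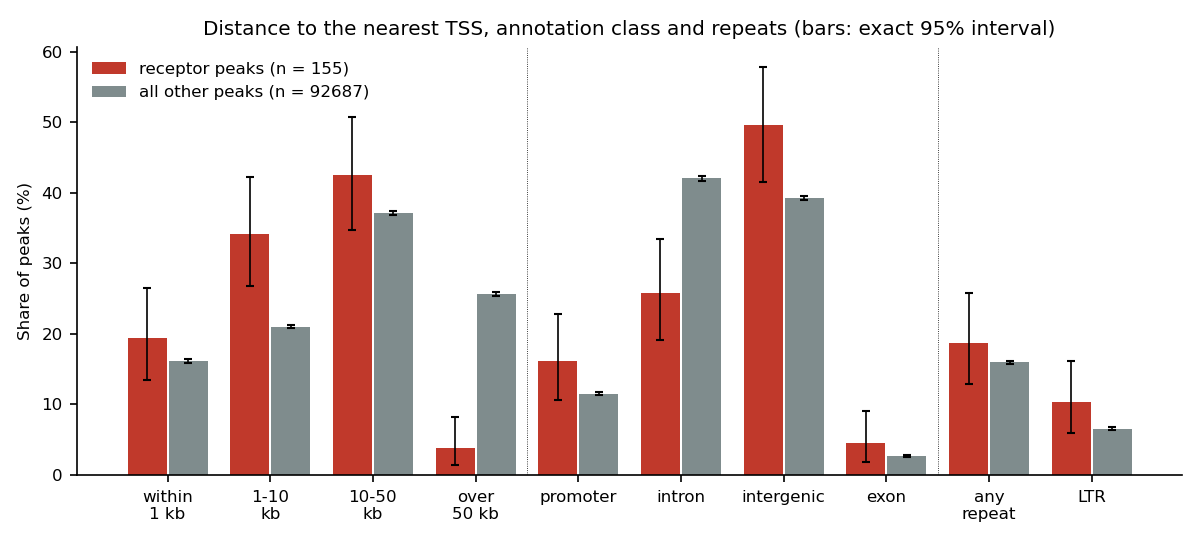
Bars give the share of peaks in percent by distance to the TSS, annotation class and repeat, for the 155 receptor peaks beside the 92687 other peaks, with exact 95% intervals. Intergenic peaks are 49.7% against 39.3%, intron peaks 25.8% against 42.1%, and peaks beyond 50 kb 3.87% against 25.7%.

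Repeats held 29 receptor peaks, or 18.7% (12.9 to 25.8), against 16% of all other peaks. Long terminal repeats of endogenous retroviruses held 16, or 10.3% (6.02 to 16.2), against 6.59% of all other peaks, a share inside the interval. Besides those at Fcgr3, Lilrb4a and Siglecf, they included MTC and ORR1B2 at Fcgr2b, RLTR45, RMER15-int and RLTR35B_MM at Slamf6, MER54A at Trem1 and MER21C at Trem2. Each of these repeat peaks lay more than 1 kb from the TSS of its receptor gene.

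Runs were taken as receptor peaks less than 100 kb from the next, and 108 of the 155 peaks lay in runs that hold more than 1 receptor gene. The densest multi-gene run covered Fcrlb, Fcrla, Fcgr2b, Fcgr4 and Fcgr3 on chr1:170901624-171060753. It held 28 peaks in 159 kb, or 17.6 per 100 kb, and each of the 28 was given to one of these 5 genes. Stretches of equal length that begin at any peak of the list hold a median of 12 peaks, and 2.75% of them hold 28 or more. The Slamf7, Slamf1 and Slamf6 run held 40 peaks in 319 kb, of which 24 were given to these 3 genes, against a median of 21 in stretches of that length, and 8.1% of such stretches hold as many. By contrast, the Pira2, Pira6 and Lilra6 run held 6 peaks in 141 kb, or 4.24 per 100 kb, against a median of 11, and 80.2% of such stretches hold at least 6. The runs were chosen because they hold receptor peaks, so that these percentages are descriptions of where each run stands.

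**Figure D3:**
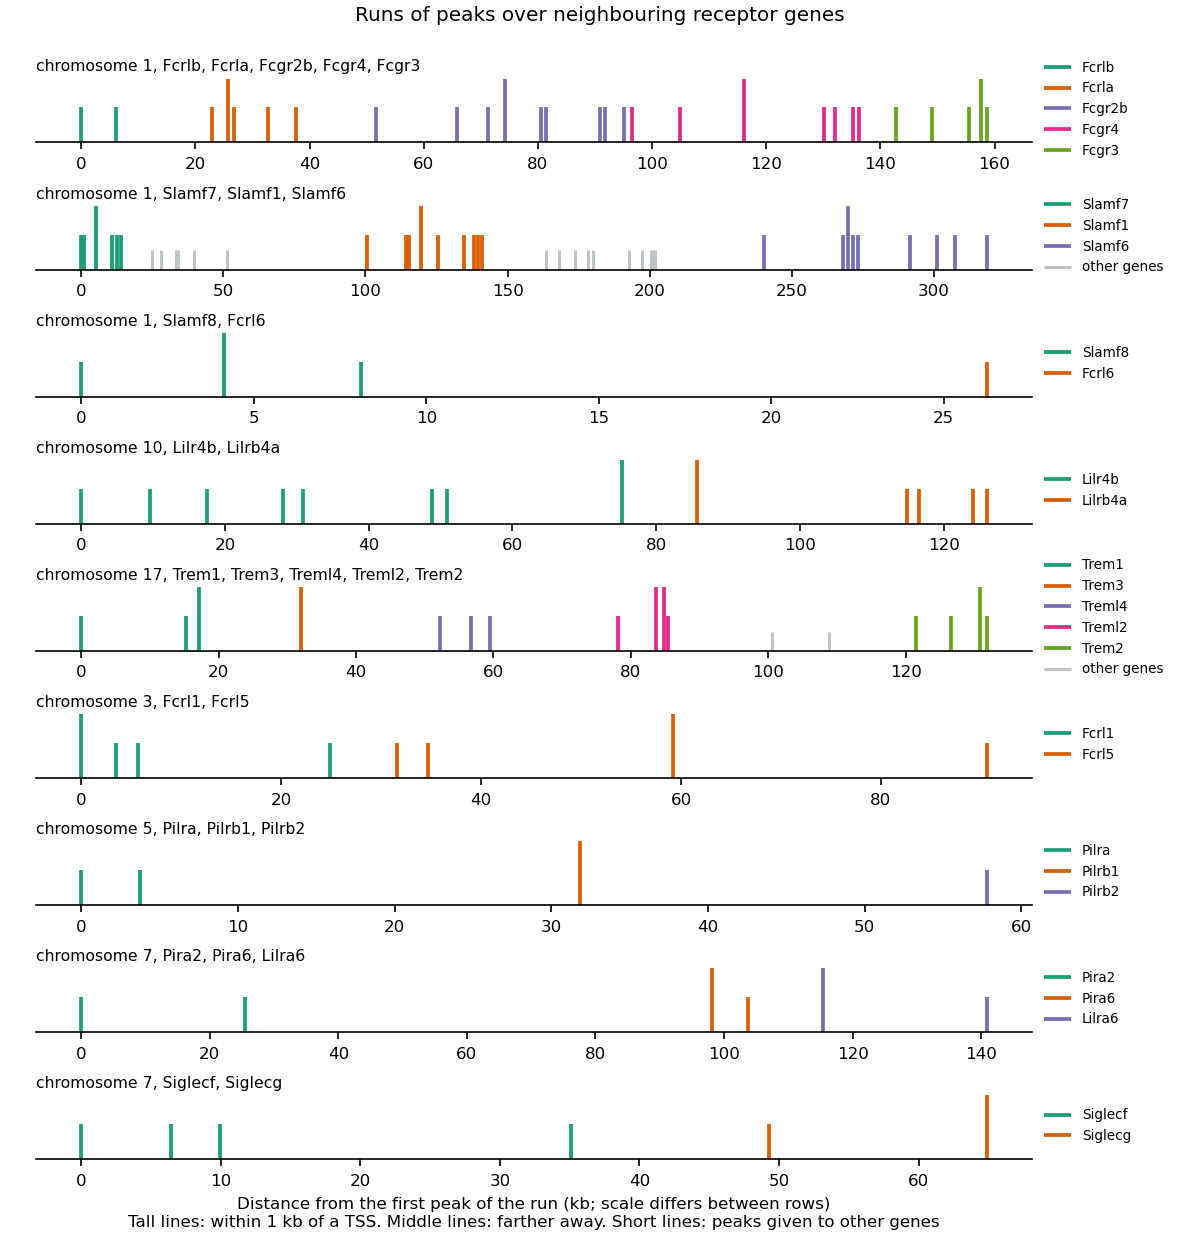
Each row is a run of peaks over neighbouring receptor genes, with lines at peak centres by distance from the first peak of the run in kb and colours for the gene each peak was given to. The 28 peaks of the row from Fcrlb to Fcgr3 contrast with the 6 of the row with Pira2, Pira6 and Lilra6, which is of similar length.

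The runs at other families were intermediate. The Trem cluster held 17 peaks in 132 kb, 15 of them given to Trem genes, against a median of 10 in stretches of that length. The run of Lilr4b and Lilrb4a held 13 peaks in 126 kb, against a median of 10. Those of Fcrl1 with Fcrl5 and of Siglecf with Siglecg held 8 and 6 peaks, against medians of 7 and 6. The Pilr run held 4 peaks in 58.3 kb, against a median of 5. At least as many peaks as in the run were held by 17.4% of such stretches for Trem, 33.2% for Lilr4b with Lilrb4a, and 48.9% to 69.5% for the other 3.

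The Slam run continued into relatives whose names do not begin with Slamf. From Cd244 to Slamf6 (chr1:171551350-171966744) the list held 55 peaks in 415 kb, of which 52 were given to 7 Slam-family genes and 24 to Slamf genes. The ends of this span were set by its own Slam peaks. Stretches of equal length were not counted for it, so whether 55 peaks are many was not tested. Cd244 (2B4), a receptor of natural killer cells, had 5 peaks and Ly9 had 7. Cd48, the ligand of Cd244, had 6, and Cd84, a receptor that binds itself, had 10. Cd84 was the exception at the start, where it had no peak within 1 kb and its nearest was centred 1050 bp inside the gene. The other 6 each had at least 1, as do 68% of all genes named as nearest.

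Grouped by signal, activating receptors had 4.00 ± 3.04 peaks per gene (SD, n = 14 genes) and inhibitory receptors 4.17 ± 2.64 (n = 6 genes), both with a median of 3.5. A peak within 1 kb of the TSS was found at 10 of the 14 activating and 4 of the 6 inhibitory genes, shares near the 68% of all genes named as nearest. The difference between these means was far smaller than the spread among genes. Neither group holds the adaptor gene Fcer1g or 15 further genes, among them all Slam and Fc receptor-like genes. Those 15 had 4.80 ± 2.81 peaks per gene, and 12 of them had one within 1 kb. The activating mean includes the 12 peaks of Siglec15, 5 of them inside Epg5, and the uncertain counts of Pira2 and Pira6. The adaptors, kinases and phosphatases through which these receptors signal had 8.62 ± 5.74 peaks per gene (n = 24 genes, one of them with 0), against 4.86 ± 5.33 for the genes of the list outside the receptors. Of the 24, 22 had a peak within 1 kb, against 68% of all genes named as nearest. Most peaks were found at Fyn and Plcg2, with 17 each, and at Syk, Lcp2 and Inpp5d, with 16 each. Fyn and Syk are tyrosine kinases, Plcg2 a phospholipase, Lcp2 a scaffold and Inpp5d the lipid phosphatase SHIP. The adaptors that bind receptors directly varied: Tyrobp had 4 peaks, Hcst 2 and the member Fcer1g 2, while Cd247, the zeta chain, and Sh2d1a (SAP), which binds the tails of Slam receptors, had 14 each. Relatives outside the chosen names, such as Cd22 and Cd33 of the Siglecs and Cd300a, had 4.81 ± 2.76 peaks per gene (n = 16 genes), and 11 of the 16 had one within 1 kb, a mean and a share near those of all genes. Ms4a2, the beta chain of the IgE receptor, and Pirb had 0.

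Promoter windows of 300 bp, from 250 bases before to 50 after the RefSeq start, were found for 30 of the 36 genes as 32 windows, among 32851 windows of all genes. A peak overlapped 23 of the 32 receptor windows, or 71.9%, against 41.7% of all other windows. For Slamf7 the RefSeq start lies near its peak 4.07 kb inside the gene rather than at the start used in the list, and Fcgr3 and Siglecg have a pair of overlapping windows each. The other windows include genes and alternative starts that no peak of the list names, whereas every receptor gene was chosen as having a peak. The gap between 71.9% and 41.7% is therefore partly set by this choice. Among genes named as nearest, 75% of receptor genes and 68% of other genes had a peak within 1 kb. The receptor promoters were poor in CpG, the dinucleotide whose density marks CpG-island promoters. Their median ratio of observed to expected CpG was 0.112 (range 0.0448 to 0.360), against 0.384 in all other windows. Median GC content was 49.0%, against 52.7% in all other windows. Windows under a peak differed more: the 23 receptor windows had a median ratio of 0.201 and 48.0% GC, against 0.754 and 61.0% in the 13692 other windows under a peak.

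A CpG ratio of 0.6, a usual limit for CpG islands, was passed by 0 of 32 receptor windows, which allows a share of up to 10.9%, against 35.8% of all other windows and 69.3% of the other windows under a peak. The highest receptor ratio, 0.360, is reached or undercut by 14.9% of the other windows under a peak. Open receptor promoters thus came from the CpG-poor end of open promoters. The adaptor and signalling genes stood between, with a median ratio of 0.317 and 21.7% above 0.6 (n = 23 windows). Within the receptor genes, the 9 windows without a peak had a median ratio of 0.0913.

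**Figure D4:**
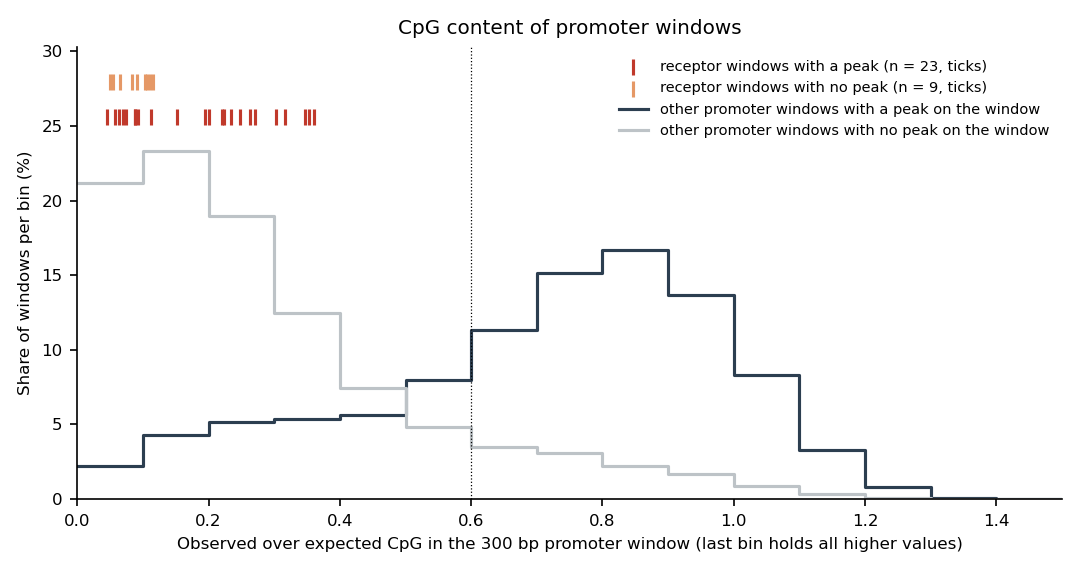
Ticks give the ratio of observed to expected CpG of each receptor promoter window, with and without a peak, above step lines that give the share of other windows in percent per bin of the ratio. The dotted line marks 0.6. The receptor windows lie between 0.0448 and 0.360, while 69.3% of other windows under a peak lie above 0.6.

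Motifs were counted as exact letters on both strands anywhere in the 300 bases. The PU.1 letters GAGGAAGT were in 6 of 32 receptor windows, or 18.8% (7.21 to 36.4), against 3.19% of all other windows. The 6 genes were Fcgr4, Fcrl1, Fcrlb, Lilra6, Pira2 and Slamf9, with the match 8 bases before the start in Slamf9 and 15 in Fcrl1. PU.1 is an ETS factor of myeloid and B cells. The near-identical Lilra6 and Pira2 windows carry the same match and are not independent. A match was held by 3 of the 23 receptor windows under a peak (13%), against 3.58% of other windows under a peak. The match in Fcrl1 does not lie fully inside its peak.

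The IRF letters, GAAA repeated after 2 bases, were likewise in 6 receptor windows (18.8%), against 3.43% of all other windows, and 3 of the 6 were the Pilr copies. The others were Fcgr4, Fcrla and Slamf8. Under a peak, only 2 of 23 receptor windows held the IRF letters (8.7%), against 3.02% of other windows under a peak. The composite of GGAA and GAAA was in 2 windows (6.25%), against 2.71% of all other windows. One was Fcgr2b, 35 bases before the start and under the peak, and the other was Pilra, with no peak. The C/EBP letters TTGCNNAA were in 8 windows, or 25% (11.5 to 43.4), against 10.8% of all other windows. These 8 windows include the Pilr copies again and a pair of overlapping Fcgr3 windows that share 1 match, beside Fcgrt, Siglech and Trem2. Under a peak, 5 of 23 receptor windows held the C/EBP letters (21.7%), against 8.42% of other windows under a peak.

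The remaining motifs gave small counts. The Gata letters AGATAAG were in 4 windows (12.5%), against 3.03% of all other windows, and these were Fcrls and the 3 Pilr genes. Only 1 of 23 receptor windows under a peak held them (4.35%), against 2.03% of other windows under a peak. The AP-1 letters TGANTCA were in 6 (18.8%), against 7.8% of all other windows, and under a peak in 21.7% against 4.94%. The Runx letters TGTGGTT were in 2 (6.25%), against 5.27%, the E protein letters CAGCTG in 6 (18.8%), against 16.3%, and TATAAA in 5 (15.6%), against 13.6%. The last 3 shares were close to those of all other windows. Among windows under a peak they were farther apart for TATAAA, in 5 of 23 receptor windows (21.7%) against 6.6% of other windows. These were Fcrl1, Fcrl5, Fcrla, Fcrls and Lilr4b, mostly Fc receptor-like genes. The same held for CAGCTG, in 26.1% of receptor windows against 15.4% of other windows. These were Slamf1, Slamf7, Slamf8, Slamf9, Fcer1g and Trem2, mostly Slam genes. Such relatives are not independent. The other windows under a peak are richer in GC, with a median of 61.0% against 48.0%, and the part of base composition was not tested. Of the TATAAA matches, that in Fcrla lay 27 bases after the start and the others 151 to 217 bases before it. In Fcrl1 the TATAAA and AP-1 matches lay outside the peak. The Ebf1 motif was in 0 of 32 windows, which allows a share of up to 10.9%, against 0.905% of all other windows. A short motif is a set of letters and not evidence that a factor binds, and the composite and IRF letters can overlap those of other ETS and IRF sites.

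**Figure D5:**
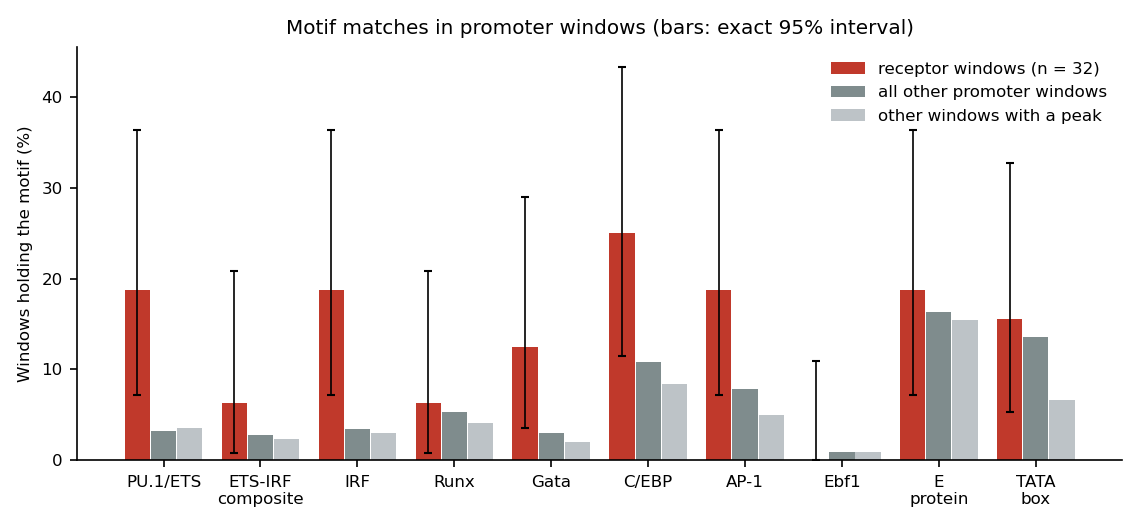
Bars give the share of promoter windows, in percent, that hold each of 10 motifs, for the 32 receptor windows (with exact 95% intervals) beside all other windows and the other windows under a peak. The PU.1 letters stand at 18.8% against 3.19% and CAGCTG at 18.8% against 16.3%.

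The near-identical copies printed above allow like sequences to be set side by side. Lilra6 and Pira2 share 287 of 298 aligned bases (96.3%) over their windows, yet a peak lay on Lilra6 and none on Pira2. Pilra shares 242 of 246 bases with Pilrb1 (98.4%) and 244 of 246 with Pilrb2 (99.2%), and none of the 3 had a peak on its window. Short reads can match more than 1 such copy, and how reads with several matches were treated is not given in the sources used here. Its part in the peaks of the Lilr, Pira and Pilr genes was not tested.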

How the data were processed

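The authors deposited a merged list of ATAC-seq peaks, annotated with annotatePeaks against mm10 per the file headers. The submitters' processing notes name HOMER 4.10.2. The aligner, peak caller, threshold and merging rule were not given in the sources used here. Positions and the signed distance to the TSS are used as deposited, whereas the deposited peak score, 0 throughout, carries no information. Depth is unknown, and the planned comparisons between cell types were not made because the list has no counts per library. Members and partner lists were chosen with earlier results of these data known, and every member gene was named by its prefix. Counts, shares with exact (Clopper-Pearson) 95% intervals, runs and motifs were computed with Python 3.11.15, pandas 2.3.3 and scipy 1.17.1, and aligned copies with Biopython 1.88 (match 1, mismatch -1, gap opening -2, extension -0.5, free end gaps). Of the 19105 genes and 32851 RefSeq windows, the 19069 genes and 32819 windows outside the receptors formed the background, with the 92687 other peaks. Values given for all peaks or all genes of the list include the receptors. Of the 36 genes, 35 were matched in the RefSeq table. The functions were tested on simulated data. No test of significance was made. The position of 1 peak is not reported here. Alternatives were other distances, gene sets and windows.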

Additional observations from a re-analysis of the deposited data

How the results depend on the processing

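Of 28 alternative values, 22 stayed within the limits set for a like result and 6 moved. The limits for motif shares were wide. Falls from 18.8% to 9.38% for PU.1 and CAGCTG were counted as a like result. So were falls from 15.6% to 6.25% for TATAAA and from 6.25% to 3.12% for the composite. Keeping only peaks within 10 kb of a TSS left 83 receptor peaks (155 without the limit) and 2.31 peaks per gene (4.31 without it). Counting each gene once gave a share of peaks within 1 kb of a TSS of 26.7% (19.4% over peaks). Values over all genes at these settings are not given here, so none of these can be set against the background shares above. Searching only the central 150 bases of the windows moved IRF to 3.12%, Gata to 3.12% and AP-1 to 6.25% of receptor windows (18.8%, 12.5% and 18.8% over the whole window), against 1.64%, 1.54% and 4.34% of all other windows (3.43%, 3.03% and 7.8% over the whole window). PU.1 fell to 9.38% of receptor windows, against 1.47% of all other windows, and TATAAA fell to 6.25%, against 6.85% of all other windows. Among windows under a peak, PU.1 fell to 4.35%, or 1 of 23 receptor windows, against 1.72% of other windows. No paired analysis was possible because the list carries no value per library, and for the same reason no replicate could be left out. A stricter peak threshold was not run, since the peak score is 0 for every peak. Depth is unknown, and with 36 genes and 32 windows the shares carry wide intervals.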
